A study of Mus musculus with 2 samples.

Results

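The mitochondrial ribosomal protein genes of cultured neural stem/progenitor cells (NSPCs) were described across lipid droplet (LD) categories, plates, cell cycle phases and clusters. All genes of the count table whose symbol starts with Mrpl or Mrps and a digit were taken, except 1 pseudogene named with -ps, which gave 78 of 15046 genes. Of these, 49 carry an Mrpl and 29 an Mrps symbol. By subunit, 51 encode proteins of the large and 26 of the small subunit, because *Mrps30* and *Mrps18a* are named for the small subunit but sit in the large one. *Mrps36* encodes a part of the 2-oxoglutarate dehydrogenase complex rather than a stable ribosomal protein.

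The cells came from the subventricular zone of 6- to 8-week-old male C57/Bl6 mice, had been passaged as neurospheres at least 5 times, and carried PLIN2-GFP from a retrovirus as a stable line. PLIN2 coats LDs, so the GFP signal follows LD content. The brightest 25% of cells (high PLIN2-GFP) and the dimmest 25% (low PLIN2-GFP) went into the wells of 2 plates for SORT-seq, in which each captured polyadenylated molecule is meant to be counted once through a unique molecular identifier (UMI). Plate 1 gave 95 low and 84 high cells, and plate 2 gave 72 low and 53 high cells. All cells, low ones included, carry the reporter, come from 1 line, and no treatment is named for either category. Whether the plates came from separate cultures is not stated. With the plate held as a block, p-values rest on how far differences between groups vary from plate to plate, and on counting noise. That variation may be technical.

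The mitochondrial ribosome (mitoribosome) translates the few mRNAs that the mitochondrial genome still encodes, all for subunits of the respiratory chain and ATP synthase. Its rRNAs, *mt-Rnr1* and *mt-Rnr2*, are made inside the organelle, whereas all its proteins are encoded in the nucleus, made on cytosolic ribosomes and imported. Compared with its bacterial relative, the mitoribosome has many added proteins, so the genes fall into those conserved in bacteria (30 large, 16 small) and those specific to mitochondria (21 large, 10 small). In proliferating cells, mitochondria supply both energy and building blocks for growth.

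Cells are not replicates, so counts were added up by plate and GFP category into 4 sums of 778022 to 1029023 UMIs. The GFP categories lay in different rows of each plate (0 rows shared), so category and row cannot be told apart. The well barcodes are a designed set, and 59 occurred on both plates. Sums of 5 NSPC markers (*Sox2*, *Nes*, *Vim*, *Fabp7*, *Hes1*) ranged from 6294 to 6404 UMIs per 1000000 (CPM), and 4 of 5 neuronal markers summed to 554 to 569 CPM in low and 424 to 541 CPM in high cells. Of the endothelial markers 2 of 3, and both ependymal markers, summed to at most 20.4 CPM. Microglial and oligodendrocyte markers are not reported here. The part of other cell types in the results was not tested.

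All 78 genes were expressed. Together they held 18858 of 3466241 UMIs, or 0.544%. A UMI of a given member was found in between 7.89% and 85.2% of the cells, with a median of 41.9%. Mean levels over the 4 sums ranged from 14.2 to 247.2 CPM, a 17.4-fold range, with a median of 58.7 CPM against 42.8 CPM over the 8348 genes tested. Because UMIs tag 3′ ends once per molecule, these CPM are not divided by transcript length. Members of the small subunit had a median of 72.7 CPM (14.8 to 159.5 CPM) and those of the large subunit of 55.1 CPM (14.2 to 247.2 CPM).

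The 8 most abundant members held 25.8% of all member UMIs. *Mrpl34*, a small protein conserved in bacteria, came first, with 242.03 and 234.3 CPM in low cells of plates 1 and 2 and 233.4 and 279.1 CPM in high cells. *Mrpl17*, which sits near the exit of the peptide tunnel, had 202.6 and 237.99 CPM in low cells and 211.99 and 257.3 CPM in high cells. The ranges of both genes overlapped, so their order was not separated beyond the spread of the sums. *Mrpl12*, a protein of the flexible stalk that recruits translation factors, averaged 186.7 CPM, and *Mrpl20*, an early binder of large subunit rRNA in bacteria, 161.98 CPM.

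Then came *Mrps14* at 159.5, *Mrps36* at 155.7, *Mrps33* at 150.6 and *Mrps21* at 147.3 CPM. *Mrps21* differed more between plates than between categories, with 181.5 and 176.01 CPM in low and high cells of plate 1 and 103.2 and 128.6 CPM on plate 2. At the lower end, *Mrpl11* of the factor-binding centre averaged 18.3 CPM, *Mrpl44*, which has an RNase III fold, 18.1 CPM, *Mrps9* 14.8 CPM and *Mrpl54* 14.2 CPM. These 4 had overlapping ranges. Of the members whose names mislead, *Mrps18a* averaged 95.4 CPM and *Mrps30* 67.5 CPM.

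**Figure D1:**
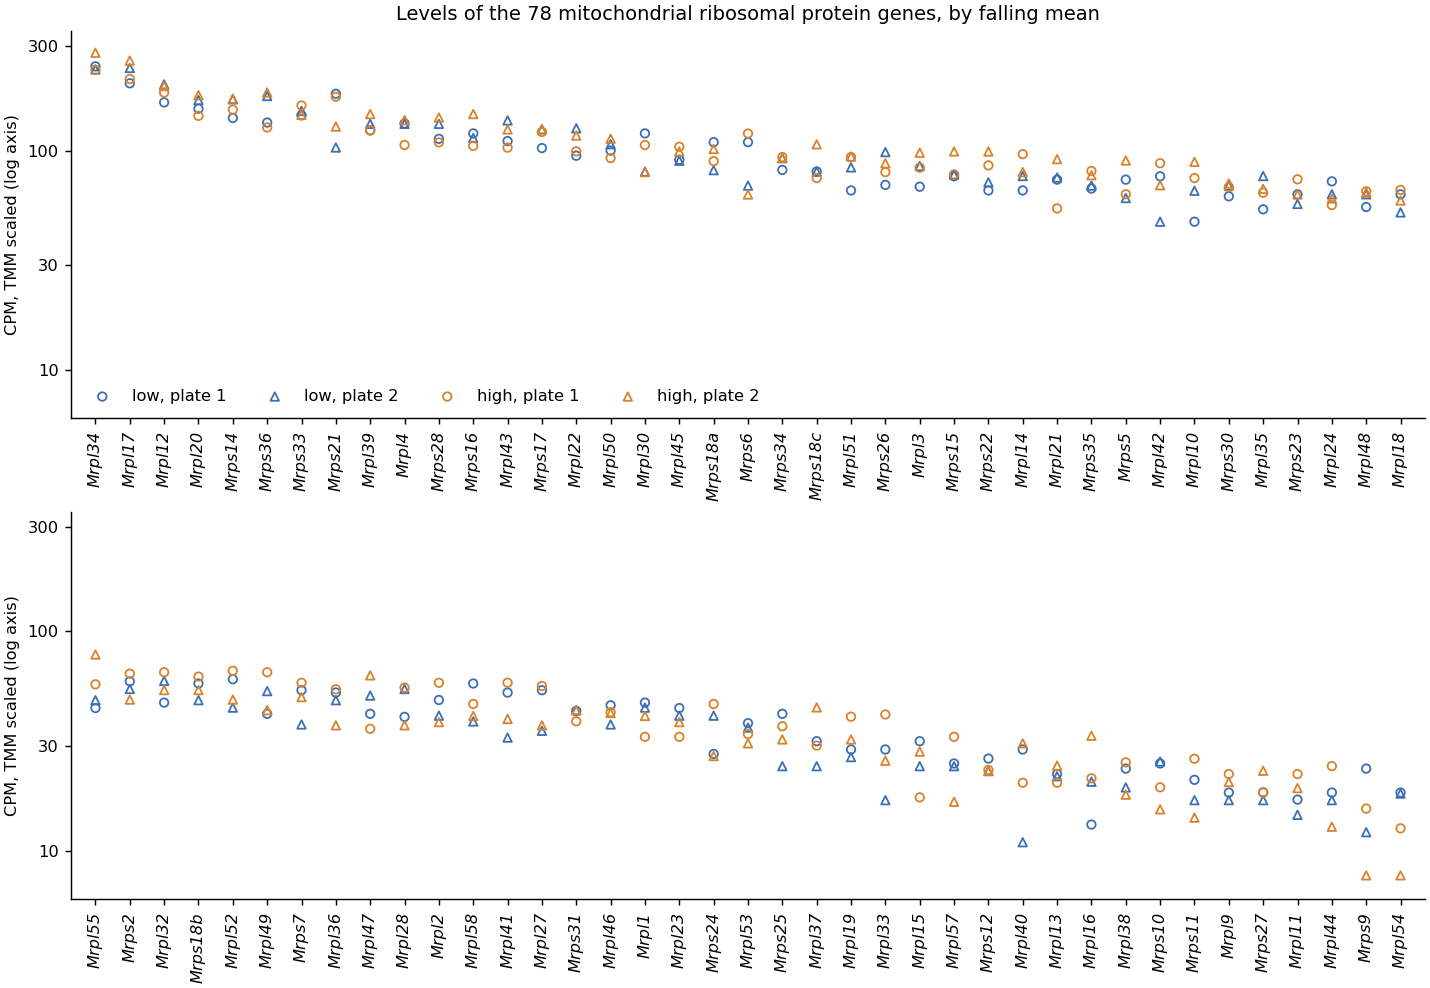
Level of each of the 78 members in the 4 sums (CPM scaled by TMM factors, log axis), ordered by falling mean in 2 rows; colours mark low and high PLIN2-GFP, and circles and triangles plates 1 and 2. Means fall from 247.2 CPM for *Mrpl34* to 14.2 CPM for *Mrpl54*, and the symbols of low and high cells overlap for most genes.

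In 10 members, over 10% of the values above 0 were not whole numbers, as arises when a molecule is divided between genes. These were *Mrpl9* (79.2%), *Mrpl33* (75.2%), *Mrpl53* (72.2%), *Mrpl23* (71.03%), *Mrps6* (60.0%), *Mrpl15* (40.3%), *Mrps26* (33.3%), *Mrpl21* (32.95%), *Mrpl38* (20.0%) and *Mrps10* (12.1%). Their values are uncertain. In GENCODE M21, *Mrps6* shares exon sequence on its strand with *Slc5a3*, the gene of a myo-inositol transporter, and 8 members in all overlap an exon of another gene on the same strand. A further overlap on the opposite strand exists for 28 members, and strand use in the counting is not given in the sources used here.

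Promoter sequences were read from RefSeq for build GRCm38.p6, which held windows for 69 of the 78 genes. In the 250 bases before the start site, the ETS motif CCGGAAG was found in 24% of 75 member windows and in 6.91% of 32851 windows of all genes, searching both strands. The NRF1 motif (GCGCA, any 1 base, then GCGC), a site for a factor known to act on nuclear genes of mitochondria, was found in 13.3% against 3.74%. The SP1 motif GGGCGG stood at 49.3% against 32.7%, YY1 (AAGATGGC) at 5.33% against 1.56%, CCAAT at 37.3% against 33.8%, the cell cycle element TTTGAA at 16% in both sets, and TATAAA at 6.67% against 12.4%. Member windows had a median GC content of 58.4% against 52.4%, so the windows also differed in base composition. These are counts of letters, with no test.

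The windows of *Mrpl17* and *Mrps26* are shown because both genes passed the test between cell cycle phases below and because their windows hold few bases of annotated coding-gene exons (12 and 15). Capitals mark matches to the motifs above on either strand. In *Mrpl17* (chr7:105811088-105811337, minus strand) an SP1 match and an ETS match overlap near the far end, 2 more SP1 matches follow, and an NRF1 match begins 49 bases before the start site. In *Mrps26* (chr2:130563507-130563756, plus strand) a CCAAT match, an SP1 match and an ETS match follow each other, all on the opposite strand.
Mrpl17: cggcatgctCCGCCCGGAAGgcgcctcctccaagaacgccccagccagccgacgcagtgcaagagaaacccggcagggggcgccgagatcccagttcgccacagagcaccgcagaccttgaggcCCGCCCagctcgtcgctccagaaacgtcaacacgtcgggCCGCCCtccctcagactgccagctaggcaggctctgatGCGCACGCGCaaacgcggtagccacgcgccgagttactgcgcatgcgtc
Mrps26: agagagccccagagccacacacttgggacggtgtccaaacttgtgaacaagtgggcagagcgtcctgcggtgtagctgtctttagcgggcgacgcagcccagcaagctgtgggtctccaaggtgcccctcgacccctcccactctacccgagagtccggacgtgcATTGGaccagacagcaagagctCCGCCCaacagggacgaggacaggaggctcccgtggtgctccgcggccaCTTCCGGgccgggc

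Whether LD content goes along with the mitoribosome was first asked of the members as a whole. On both plates, members took a larger share of UMIs in high PLIN2-GFP cells. The share was 0.512% in low (95% exact binomial interval 0.496 to 0.527) and 0.561% in high cells (0.547 to 0.576) of plate 1, and 0.520% in low (0.504 to 0.535) and 0.582% in high cells (0.565 to 0.599) of plate 2. These intervals cover counting error only. Both high sums lay above both low sums, with ratios of 1.10 and 1.12. Scaled by total UMIs only, as a share is, the median log2 fold change was 0.15 for members and 0.07 over all genes tested. The typical gene thus also took a slightly larger share in high cells, though by less than the members.

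The mean share was 0.572% ± 0.0145 (SD, n = 2 plates) in high and 0.516% ± 0.00568 in low cells, a difference of 0.0560 ± 0.00877 percentage points. With 4 sums the exact two-sided permutation test gave p = 0.333, and 0.5 with shares of a plate kept paired. These are the smallest values that such a design allows. The mean share of the large subunit was 0.324% in low and 0.358% in high cells, and that of the small subunit 0.177% and 0.198%.

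High cells also had more UMIs, with medians of 11709 and 14729 per cell against 7856 and 11955 in low cells, and a lower mitochondrial percentage, with medians of 11.9% and 12.4% against 13.97% and 12.5%. In cells under 20% mitochondrial counts the difference was 0.0578 percentage points. After thinning each cell to 5000 UMIs it was 0.0600, but a random draw leaves the expected share of a cell unchanged. Thinning thus cannot answer the difference in UMIs per cell, whose part in the share was not tested. With mitochondrially encoded and rRNA genes out of the total, the mean shares were 0.606% in low and 0.657% in high cells. Their difference was 0.0510 percentage points. The smaller total raises every share, so this value is not on the scale of the 0.0560 above.

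In single cells the share varied widely. In low cells it ran from 0.214% to 0.785% on plate 1 (median 0.491%) and from 0.264% to 0.723% on plate 2 (median 0.535%). In high cells it ran from 0.283% to 0.855% (median 0.551%) and from 0.230% to 0.857% (median 0.574%). The categories overlapped over most of their range. A cell held a median of 42 to 78 member UMIs, depending on the sum, and the spread between cells was 2.01 to 2.37 times that of Poisson counting. For cytosolic ribosomal protein genes, with many more UMIs, this ratio was 31.03 to 48.95, and for nuclear subunits of oxidative phosphorylation (OXPHOS) 7.90 to 13.2. At 5000 UMIs per cell, a median of 20 members was seen in low cells of either plate, and of 22 and 23 in high cells. Without thinning, these medians were 28 and 35 in low and 37 and 41 in high cells.

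**Figure D2:**
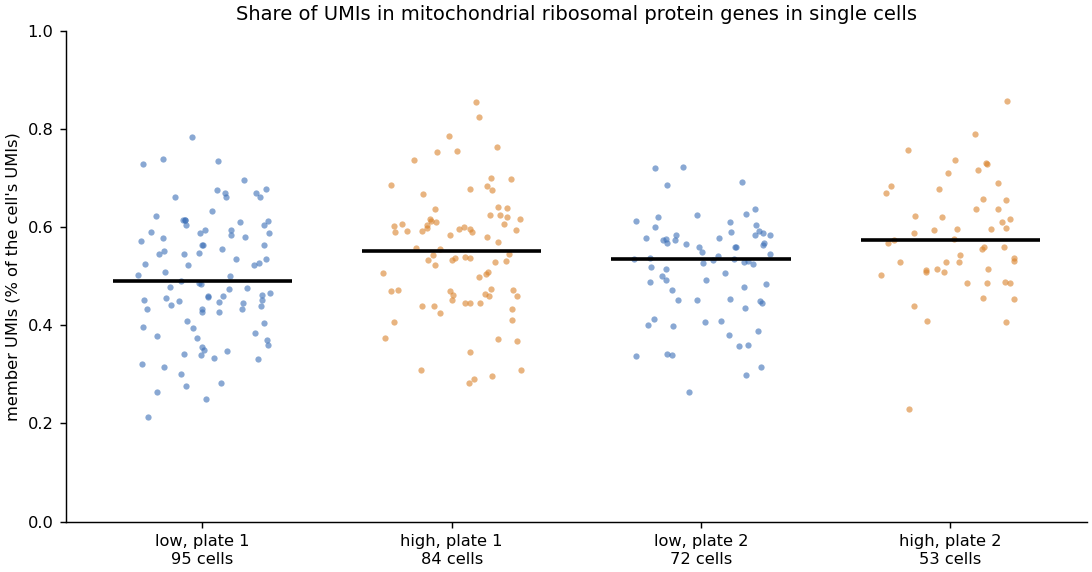
Share of a cell's UMIs in the 78 members (%, y axis) for low and high PLIN2-GFP NSPCs of each plate; points are single cells and bars medians. The medians are 0.491% and 0.551% on plate 1 and 0.535% and 0.574% on plate 2, while most cells of both categories lie in the same range.

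Gene by gene, no member passed the test between the categories. In edgeR's quasi-likelihood test with the plate as a block, 0 of 78 members passed an adjusted p of 0.1 (Benjamini-Hochberg), where 2.14% of the 8348 genes tested did (0.886% higher and 1.26% lower). At an unadjusted p under 0.05, 3 members (3.85%) were found, all higher in high cells, against 10.997% of all genes. DESeq2 gave no adjusted p for any member, so it could call none. At an unadjusted p under 0.05 it found 0 members. The share of all genes at that level was not taken, so no conclusion is drawn from this 0. The median log2 fold change of the members was 0.08 (0.08 on either plate), against -0.0015 over all genes, and 55 of 78 (70.5%) were above 0.

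Of the members, 28 (35.9%) were higher in high cells on both plates, 9 (11.5%) were lower on both, and 41 went opposite ways. Over all genes 27.9% were higher and 28.4% lower on both plates. Both high sums were above both low sums for 15 members (19.2%, all genes 15.6%), and both were below for 6 (7.69%, all genes 16.2%). Members conserved in bacteria had a median of 0.08 and those specific to mitochondria of 0.09. The median was 0.07 for the large and 0.10 for the small subunit. The median of every class thus lay slightly above 0.

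*Mrpl10*, which forms the base of the factor-recruiting stalk, had the smallest p among the members. Its level was 47.4 and 65.6 CPM in low and 74.9 and 88.8 CPM in high cells, a log2 fold change of 0.54 ± 0.22 (SE, edgeR adjusted p = 0.276). *Mrpl55*, also of the large subunit, had 44.7 and 48.6 CPM in low and 57.4 and 78.5 CPM in high cells (0.53 ± 0.24, edgeR adjusted p = 0.368). *Mrps22*, a mitochondria-specific protein of the small subunit, had 65.8 and 71.6 CPM against 85.6 and 99.04 CPM (0.42 ± 0.20, edgeR adjusted p = 0.408). In these 3 genes the high sums lay above the low sums without overlap, yet none passed the correction.

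*Mrpl16*, close to the peptidyl transferase centre, followed with 13.2 and 20.6 CPM in low and 21.4 and 33.4 CPM in high cells (log2 fold change 0.69 ± 0.37). *Mrpl33*, whose counts are uncertain, had 28.9 and 16.999 CPM against 41.8 and 25.7 CPM (0.55 ± 0.32). In the opposite direction, *Mrpl54* had 18.4 and 18.2 CPM in low and 12.6 and 7.72 CPM in high cells (-0.82 ± 0.44, edgeR adjusted p = 0.493). This rests on 48 UMIs in all. *Mrps9* (-0.62 ± 0.43), *Mrps10* (-0.52 ± 0.37), *Mrpl1* of the stalk at the tRNA exit (-0.32 ± 0.28) and *Mrpl23* (-0.27 ± 0.28) were also lower on both plates, with adjusted p between 0.668 and 0.825 in edgeR. The misnamed members had values near 0, *Mrps36* -0.0056 ± 0.15, *Mrps18a* -0.0041 ± 0.19 and *Mrps30* 0.09 ± 0.22.

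Other parts of the mitochondrial translation system were set beside the members. Of the 5 subunits with other names (*Dap3*, *Chchd1*, *Aurkaip1*, *Ptcd3*, *Gadd45gip1*), 0 passed in high versus low cells, with log2 fold changes from -0.05 to 0.17. Of 8 translation factors, 18 assembly and rRNA modification factors, 9 genes of mitochondrial transcription and mRNA handling and 7 aminoacyl-tRNA synthetases tested, 0 passed, with medians of 0.10, 0.01, -0.01 and 0.06. Over all genes 2.14% passed. Both mitochondrial rRNAs fell. *mt-Rnr1* had 12715 and 11164 CPM in low and 10026 and 9043 CPM in high cells (log2 fold change -0.32 ± 0.05, edgeR adjusted p = 5.4e-07), and *mt-Rnr2* 28822 and 23976 CPM against 20246 and 18564 CPM (-0.44 ± 0.05, edgeR adjusted p = 2.2e-17). Of 13 mitochondrially encoded mRNAs, 5 fell (38.5%, all genes 1.26%) and 0 rose.

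Members and cytosolic ribosomal protein genes, the nearest family by function, had medians of opposite sign. Cytosolic ribosomal protein genes took 9.58% and 10.0% of UMIs in low and 8.85% and 9.41% in high cells. Of the 82 tested, 7 fell (8.54%, all genes 1.26%) and 0 rose, and their median was -0.17 with 1 above 0. Nuclear OXPHOS subunit genes took 2.50% and 2.25% in low and 2.73% and 2.59% in high cells, with a median of 0.09. Of the 78 tested, 3 rose (*Atp5k*, *Uqcrc1*, *Uqcrfs1*, 3.85%, all genes 0.886%) and 0 fell. Whether the members differed from these lists was not tested.

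**Figure D3:**
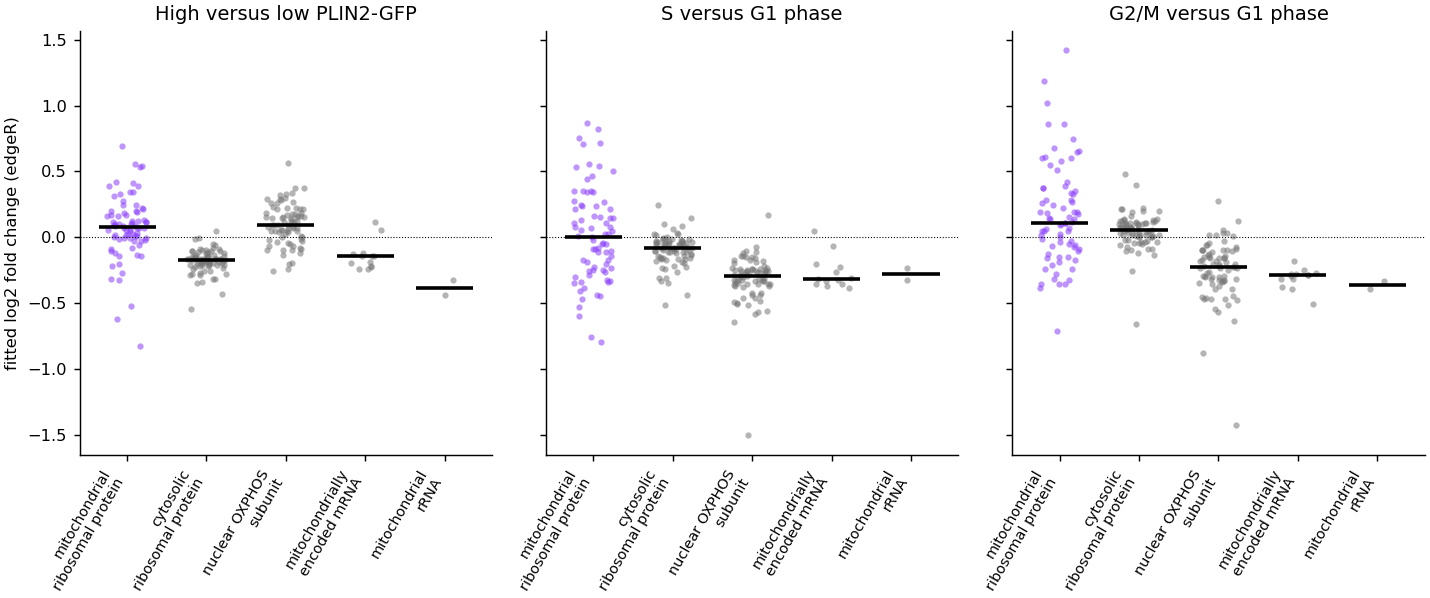
Fitted log2 fold change (edgeR, y axis) of each gene tested in 5 lists, for high versus low PLIN2-GFP, S versus G1 and G2/M versus G1 phase; points are genes, bars medians. In the first comparison the members' median is 0.08, that of cytosolic ribosomal protein genes -0.17 and that of nuclear OXPHOS genes 0.09, while nuclear OXPHOS genes lie mostly below 0 in S and G2/M phase and the members do not.

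The cell cycle was the second axis, since the authors assigned each cell to a phase from cell cycle genes of the same cells. The G1, S and G2/M cells numbered 81, 41 and 57 on plate 1 and 51, 36 and 38 on plate 2. One member, *Mrpl36*, belongs to the S phase list of Seurat and was left out of the counts below. It did not pass in either phase, with log2 fold changes of -0.10 ± 0.31 in S and 0.07 ± 0.30 in G2/M. The S and G2/M comparisons share the G1 sums, so they are not independent of each other. *Mrpl54* was too low to be tested there, which left 76 members.

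In G1 cells the members took 0.521% and 0.512% of UMIs, in S 0.546% on both plates, and in G2/M 0.558% and 0.590%. The S sums and the G2/M sums thus lay above the G1 sums on both plates. The difference from G1 was 0.0296 ± 0.00727 percentage points in S and 0.0575 ± 0.0293 in G2/M (SD, n = 2 plates), each with an exact two-sided permutation p of 0.333, the smallest possible. These sums pool low and high cells, whose mix differed between phases. In high cells alone the differences were 0.0312 in S and 0.0671 in G2/M. In low cells they were 0.0174 and 0.0348, the latter with -0.0055 on plate 1 and 0.0750 on plate 2. The part of the mix in these shares was not tested. With mitochondrially encoded and rRNA genes out of the total, which took a smaller share in S and G2/M, the differences were 0.0188 and 0.0484.

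In S versus G1, 1 member passed the adjusted p of 0.1 in edgeR (1.32%, all genes 12.7%, of which 7.56% higher and 5.19% lower), and it rose. This was *Mrps18b*, a mitochondria-specific protein of the small subunit (chr17:35910379-35916389). It had 43.9 and 36.9 CPM in G1 and 74.8 and 66.9 CPM in S, without overlap (log2 fold change 0.82 ± 0.28, edgeR adjusted p = 0.0599). Without the block it was not called. DESeq2 called 0 members (all genes 2.71%), and found 0 at an unadjusted p under 0.05. At an unadjusted p under 0.05 stood 8 members (10.5%, all genes 22.1%). The members' median was 0.0070 against -0.03 over all genes, with 39 of 76 above 0. Members were higher in S on both plates in 26 cases (34.2%, all genes 30.3%) and lower on both in 23 (30.3%, all genes 33.3%).

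Both S sums were above both G1 sums for 17 members (22.4%, all genes 22.2%) and below for 15 (19.7%, all genes 22.9%). Next to *Mrps18b* came *Mrpl18* (0.72 ± 0.30), *Mrpl41* (0.71 ± 0.30) and *Mrpl50* (0.47 ± 0.21), with adjusted p of 0.140 to 0.172 in edgeR. In the other direction stood *Mrps28* (-0.43 ± 0.19), *Mrps33* (-0.33 ± 0.17), *Mrpl23* (-0.60 ± 0.32) and *Mrpl42* (-0.47 ± 0.26), with adjusted p of 0.177 to 0.298. Of these 7 members, 0 passed.

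In G2/M versus G1, 7 members passed in edgeR at the adjusted p of 0.1 (9.21%, all genes 16.4%), of which 6 rose (all genes 8.99%) and 1 fell (all genes 7.4%). At an unadjusted p under 0.05 stood 15 members (19.7%, all genes 23.7%). The median of the members was 0.11 against -0.01 over all genes, and 50 of 76 were above 0. Members were higher in G2/M on both plates in 34 cases (44.7%, all genes 31.3%) and lower on both in 15 (19.7%, all genes 33.6%). Both G2/M sums were above both G1 sums for 25 members (32.9%, all genes 22.6%) and below for 7 (9.21%, all genes 23.4%). The large subunit gave 5 of those that rose and the small subunit 1, with medians of 0.14 and 0.11.

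*Mrpl40*, a mitochondria-specific protein of the large subunit (chr16:18872018-18876862), rose most. It had 17.8 and 10.2 CPM in G1, 21.999 and 8.58 CPM in S and 33.99 and 45.2 CPM in G2/M (log2 fold change 1.42 ± 0.43, edgeR adjusted p = 0.0264). Its level is low, with 13 and 5 UMIs in G1 and 20 and 23 UMIs in G2/M, but the sums did not overlap. *Mrpl51*, also mitochondria-specific (chr6:125191801-125196269), had 69.97 and 71.7 CPM in G1 and 105.4 and 123.8 CPM in G2/M (0.68 ± 0.22, edgeR adjusted p = 0.0349). Its S values of 72.6 and 75.5 CPM stayed near those of G1.

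*Mrpl18*, a relative of the bacterial protein that binds 5S rRNA (chr17:12911349-12916345), had 54.9 and 24.6 CPM in G1 and 78.2 and 72.7 CPM in G2/M (0.86 ± 0.28, edgeR adjusted p = 0.0456). The G1 sums differed more from each other than the G2/M sums did. *Mrpl10* (chr11:97041560-97049213) had 41.2 and 65.5 CPM against 78.2 and 96.3 CPM (0.74 ± 0.26, edgeR adjusted p = 0.0562). *Mrpl17* (chr7:105803206-105811099), one of the most abundant members, had 187.95 and 217.1 CPM in G1, 202.4 and 250.5 CPM in S and 243.03 and 283.04 CPM in G2/M (0.37 ± 0.15, edgeR adjusted p = 0.0987). Its rise was the smallest, and on each plate its S level stood between the others.

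*Mrps26*, a mitochondria-specific protein of the small subunit (chr2:130563742-130568695), had 54.9 and 75.8 CPM against 95.2 and 106.1 CPM (0.64 ± 0.23, edgeR adjusted p = 0.0618). *Mrps6*, conserved in bacteria (chr16:92058270-92112227), was the member that fell, from 144.05 and 77.8 CPM in G1 to 84.98 and 51.1 CPM in G2/M (-0.71 ± 0.22, edgeR adjusted p = 0.0301). Its ranges overlapped between phases, with plate 1 above plate 2 in both, while within each plate G2/M was lower. Both genes have many divided counts, and without the 10 uncertain members 5 of 66 passed. The next lower members, *Mrps33* (-0.36 ± 0.17), *Mrps21* (-0.32 ± 0.18) and *Mrps36* (-0.24 ± 0.18), did not pass in edgeR (adjusted p 0.203 to 0.452).

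Most G2/M calls were lost without the plate block. Then 1 member passed (*Mrpl40*), and in DESeq2 with the block 0 of 76 passed, also at an unadjusted p under 0.05, whereas 317 genes passed in all. In all 16 alternative fits, or 12 for *Mrpl40*, the direction of each of these 7 genes stayed as given. The alternatives reuse the same cells, so the kept direction is no further support. Fits that left out 1 sum were run without the block and held 1 sum in a phase, so their calls are not set against the 7.

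**Figure D4:**
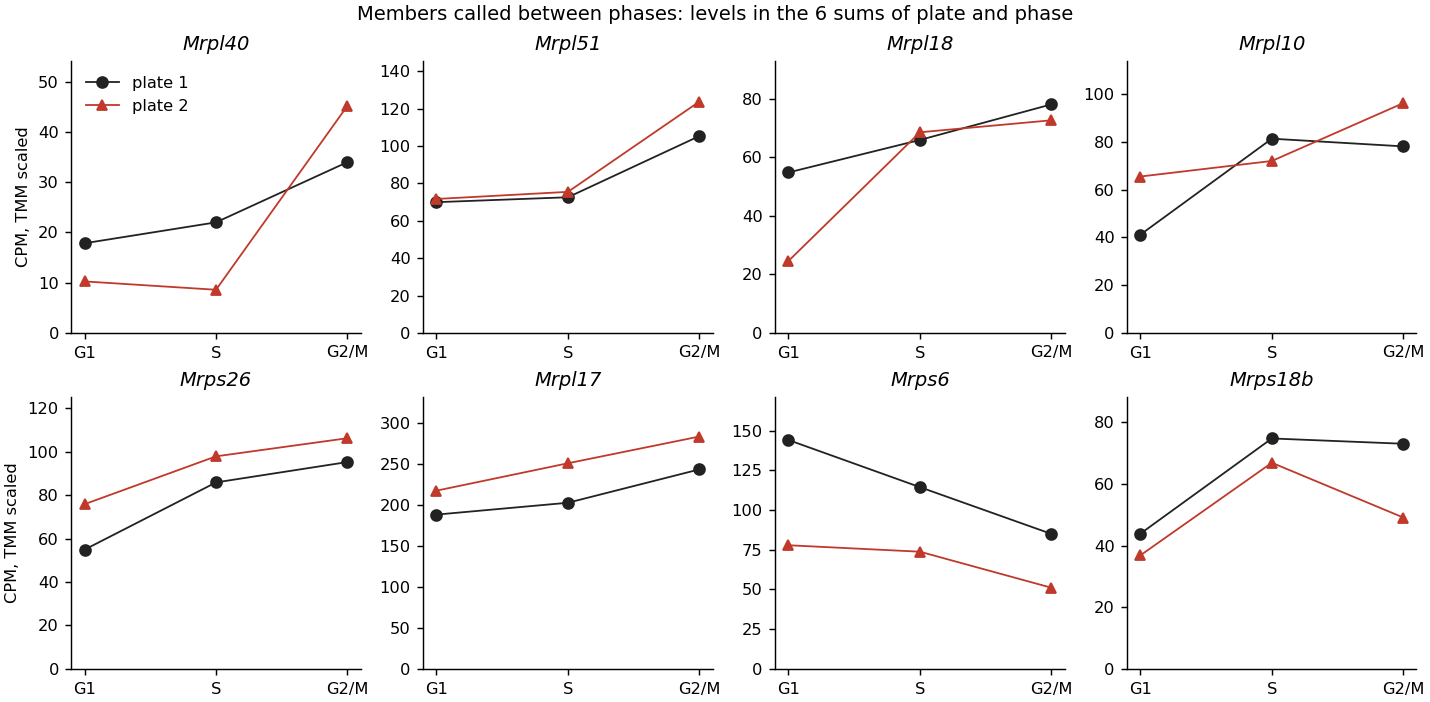
Level (CPM scaled by TMM factors, y axis from 0) of the 8 members called in S or G2/M versus G1, in the 3 phases of plate 1 (circles) and plate 2 (triangles). *Mrpl40* reaches 33.99 and 45.2 CPM in G2/M from 17.8 and 10.2 CPM in G1, *Mrps6* falls on both plates, and *Mrps18b* is highest in S on both plates.

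Beside the members, *Gadd45gip1*, the gene of a large subunit protein under another name, rose in both S (0.62 ± 0.21, edgeR adjusted p = 0.0623) and G2/M (0.54 ± 0.21, edgeR adjusted p = 0.0942). The other 4 subunits with other names did not pass. At an adjusted p of 0.1 in edgeR, of the tested translation factors (8), assembly factors (14), transcription and mRNA handling genes (7) and synthetases (6), 0 passed in either phase. Over all genes 12.7% passed in S and 16.4% in G2/M. Both mitochondrial rRNAs fell, *mt-Rnr1* by 0.23 in S and 0.39 in G2/M and *mt-Rnr2* by 0.33 in both on the log2 scale. Of the 13 mitochondrially encoded mRNAs, 10 fell in S (76.9%, all genes 5.19%) and 12 in G2/M (92.3%, all genes 7.4%).

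Nuclear OXPHOS genes, which went with the members between GFP categories, had medians below 0 between phases. Of 78 tested, 20 fell in S (25.6%, all genes 5.19%) and 17 in G2/M (21.8%, all genes 7.4%) and 0 rose. Their medians were -0.29 and -0.22. Their share of UMIs was 2.83% and 2.63% in G1, 2.45% and 2.26% in S and 2.50% and 2.35% in G2/M. Of 82 cytosolic ribosomal protein genes, 4 fell and 0 rose in S (4.88%, all genes 5.19% lower). In G2/M, 2 fell and 2 rose (4.88% together, all genes 16.4%). The count in S was near the share of all genes and that in G2/M below it. Again the lists were not tested against each other.

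Next, category and phase were crossed. In each of the 3 phases of both plates, high cells had the larger member share (6 of 6 pairs). In G1 it was 0.512% in low and 0.532% in high cells of plate 1, and 0.484% and 0.546% on plate 2. In S it was 0.515% and 0.567% on plate 1, and 0.516% and 0.573% on plate 2. In G2/M it was 0.507% and 0.584% on plate 1, and 0.559% and 0.628% on plate 2. The difference was smallest in G1 of plate 1, at 0.0191 percentage points, where the counting intervals of low (0.491 to 0.535) and high (0.508 to 0.556) overlapped. In low cells of plate 1 the share stayed between 0.507% and 0.515% across phases, whereas on plate 2 it was higher in G2/M than in G1 in both categories.

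The authors' 2 clusters, made from all genes of these cells, are given without a test. Cluster 0 held 61 high and 31 low cells of plate 1 and 40 and 23 of plate 2, and cluster 1 held 23 and 64, and 13 and 49. The member share was 0.534% in cluster 0 and 0.546% in cluster 1 on plate 1, and 0.559% and 0.538% on plate 2, so the plates differed in sign. Within each cluster high cells had the larger share, in 4 of 4 pairs. It was 0.476% in low and 0.552% in high cells of cluster 0 and 0.526% and 0.580% of cluster 1 on plate 1, and 0.503% and 0.583%, and 0.527% and 0.578%, on plate 2. In low cells, cluster 1 lay above cluster 0 on both plates. The pairs by phase and by cluster divide the same cells of both plates, so they are not further replicates.

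**Figure D5:**
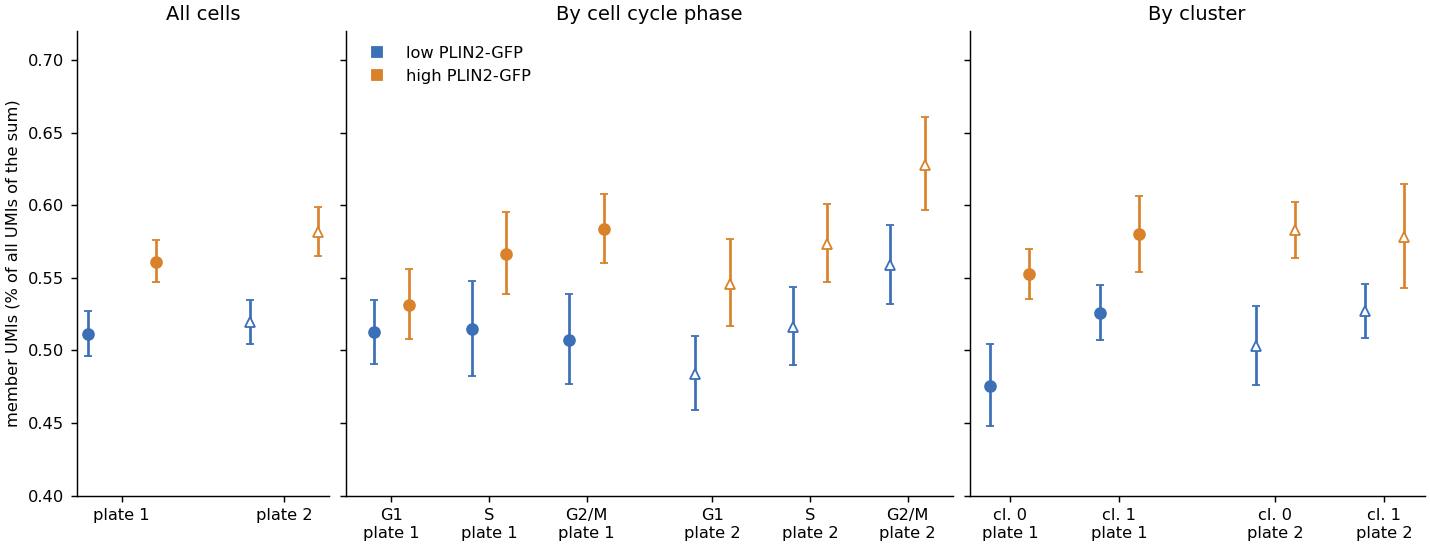
Member UMIs in % of all UMIs (y axis, from 0.40) in sums of cells by GFP category, by category and cell cycle phase, and by category and cluster (cl.); filled circles are plate 1, open triangles plate 2, and bars exact 95% binomial intervals. High PLIN2-GFP NSPCs lie above low ones in all 6 pairs by phase and all 4 pairs by cluster, which divide the same cells of both plates.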

How the data were processed

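Single PLIN2-GFP NSPCs of 2 plates were measured by SORT-seq. The authors assigned reads to GRCm38 with Salmon and alevin, per the labels, and deposited estimated counts (expected UMI counts), without normalization. Versions and annotation release are not given in the sources used here. A per-cell table was deposited with totals, counts of genes, the mitochondrial percent, cell cycle scores, plate, category, phase and cluster. The study states a limit of 20% mitochondrial counts, and 11 cells lie at or over it. The count table names no cells, so its columns were joined by equal total and number of genes, with 0 columns not used.

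Counts were summed per plate and category (4 sums) or phase (6 sums, 460368 to 767400 UMIs) and rounded. edgeR 4.0.16 (R 4.3.3) was run with TMM, filterByExpr and the plate as a replicate block, using its quasi-likelihood test with Benjamini-Hochberg adjustment over all 8348 or 7650 genes and calls under 0.1. Standard errors were taken as the size of the log2 fold change divided by the root of F. The block leaves 1 or 2 residual degrees of freedom. The plate pairs the sums by construction, and deviations of same-plate sums had a correlation of 0.30 over 8348 genes. Shares were compared by exact permutation tests in scipy 1.17.1. Thinning left out 45 cells. Alternatives were DESeq2 1.42.0, other scalings and filters, thinning, subsets of cells, no block, and each sum left out without the block. Doublets had been removed by the authors.

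Members and lists were chosen with earlier results of these data known. Named are members called in any comparison, those of smallest p with 1 direction on both plates (5 each way for categories, 4 each way for phases), the 8 highest and 4 lowest levels, members of cell cycle lists and 3 members with odd names. Coordinates are GENCODE M21 (GRCm38).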

Additional observations from a re-analysis of the deposited data

How the results depend on the processing

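Between GFP categories, 0 members passed in any alternative run. In several of them hardly any gene passed (1 of all genes without the replicate block, 0.151% in G1 cells and 0.159% after thinning), so a 0 there says nothing about the members. Fits that left out 1 sum had no block and 1 sum in a category, so their calls say nothing either. DESeq2 gave no adjusted p for any member there. The members' median log2 fold change stayed above 0 throughout, against 0.08 as reported. It was 0.049 in G1 cells (61 members tested), 0.11 in S and G2/M cells, 0.072 after thinning (64 tested), 0.084 in cells under 20% mitochondrial counts and 0.094 with a mean count filter of 50 (39 tested). With library size only it was 0.15 (all genes 0.07), with no filter 0.097, with no replicate block 0.089, with the 5 subunits of other names 0.085, without *Mrps36* 0.085, and without the 10 members of uncertain counts, an alternative chosen after seeing the data, 0.091. Leaving out 1 sum, without the block, gave 0.058 to 0.11. Of the 10 members named for this comparison, *Mrpl23* turned sign in 1 of 14 alternatives and the other 9 in 0. These 10 were chosen for 1 direction on both plates and the alternatives reuse the same cells, so the stable sign is no support.

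With 12 sums by plate, category and phase, and the category also in the fit, 58 members were tested. There 1 passed in S (*Mrps18b*, all genes 17.6%) and 5 in G2/M (all genes 22.9%). The S call went to 0 with DESeq2, thinning, high cells only, no replicate block or an adjusted p under 0.05. In low cells the 1 call was *Mrpl18* in place of *Mrps18b*. The 7 G2/M calls became 0 with DESeq2, 1 after thinning (*Mrpl48*, not among the 7), 3 in high cells, 3 in low cells, 1 with no replicate block and 4 at an adjusted p under 0.05. The calls in high cells were *Mrps26*, *Mrps18b* and *Mrpl49*, of which only *Mrps26* was among the 7, and those in low cells were *Mrpl17*, *Mrps6* and *Mrpl18*, so both sets share 0 genes. All genes called in G2/M made up 11.4% after thinning, 11.6% in high and 12.1% in low cells. Calls of the phase fits with 1 sum left out, which had no block, are not given. With no replicate block, 5.80% of all genes were called in S and 8.54% in G2/M against 12.7% and 16.4%, and DESeq2 called 2.71% and 4.14%. Fewer cells or members enter the thinned and single-category fits; the cause of the other changes was not tested.

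The share difference between categories was 0.0408 percentage points in G1 and 0.0498 to 0.0622 on single plates. That between S and G1 was 0.0188 without mitochondrially encoded and rRNA genes, 0.0174 in low cells and 0.0244 to 0.0347 on single plates. That between G2/M and G1 was 0.0368 to 0.0782 on single plates, 0.0348 in low cells (-0.0055 on plate 1 and 0.0750 on plate 2) and 0.0427 after thinning (0.0088 and 0.0765). The cluster difference of -0.0042 was 0.0371 in low cells, 0.0115 in high cells and 0.0032 without mitochondrially encoded and rRNA genes, and -0.0204 and 0.0120 on single plates. Values without mitochondrially encoded and rRNA genes are on the scale of that smaller total. Members rest on 48 to 834 UMIs each and on 2 plates.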
